A study of Rattus norvegicus with 48 samples.

Results

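Albumin (Alb, ENSRNOG00000002911), haptoglobin (Hp, ENSRNOG00000014964) and apolipoprotein E (Apoe, ENSRNOG00000018454) were followed in rat liver as 3 genes picked by identifier out of 32662 in the count table. All 3 passed the filter on low counts, which left 12756 genes for testing. Male Wistar rats of the RjHan:WI stock, received at 6 weeks of age and kept in pairs, were fed either an L-amino acid-defined diet without choline and with 1% cholesterol (CDAA, spelled CDDA in the diet label) or its choline-supplemented control (CSAA). Livers were taken after 4, 8 and 12 weeks from 8 animals per diet and time, 48 different animals in all, and mRNA of whole liver pieces was sequenced. CDAA also held more fat, less carbohydrate and less methionine than CSAA, so the effect of choline, cholesterol and the other differences cannot be told apart. No allele or drug differed between the groups. Which animals shared a cage was not analysed here. Reads on genes ranged from 13619274 to 22284359 per animal with a median of 18614479. Animals 303 (CDAA, week 4), 504 (CSAA, week 8), 908 (CSAA, week 12) and 1102 (CDAA, week 12) were set apart from their groups by an earlier analysis of all genes of these data, and results that changed their call without them are given with both values.

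Albumin is the main protein that hepatocytes secrete into plasma, where it holds osmotic pressure and carries fatty acids, bilirubin and drugs. Haptoglobin is a plasma protein, also made by hepatocytes, that binds free haemoglobin and rises in the acute phase response to inflammation, in which albumin is known to fall. Apolipoprotein E sits on lipoprotein particles, is the ligand by which the LDL receptor family takes up their remnants, and is made by hepatocytes and also by macrophages. In whole liver pieces, fewer cells of a type and less RNA per cell cannot be told apart.

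Promoter sequences are shown for Alb and Apoe, as a view of the bases around the start of genes followed here. RefSeq windows of the GRCr8 assembly, 250 bases before to 50 after the transcript start, were found for these 2 of the 3 genes. Alb lies on the minus strand of chromosome 14 (chr14:17906930-17907229) with a GC content of 40.67%. Apoe has 3 listed starts on the minus strand of chromosome 1, and the window at chr1:88484650-88484949 is shown, with a GC content of 63.67%. The Apoe windows not shown had a lower GC content, 52.67% at chr1:88485767-88486066 and 59.67% at chr1:88484471-88484770. The median over 33469 windows was 51.67%. Capitals mark matches to 5 motifs searched on both strands. These were the HNF1 core GTTAAT, the CCAAT box, the C/EBP site TTGCNNAA, the STAT3 site TTCNNNGAA and the GC box GGGCGG.
Alb promoter: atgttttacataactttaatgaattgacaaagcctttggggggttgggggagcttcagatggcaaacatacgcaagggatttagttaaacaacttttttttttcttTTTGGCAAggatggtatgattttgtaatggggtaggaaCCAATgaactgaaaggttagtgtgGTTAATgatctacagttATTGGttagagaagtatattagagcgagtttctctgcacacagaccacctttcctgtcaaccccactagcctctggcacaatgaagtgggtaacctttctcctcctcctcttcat
Apoe promoter: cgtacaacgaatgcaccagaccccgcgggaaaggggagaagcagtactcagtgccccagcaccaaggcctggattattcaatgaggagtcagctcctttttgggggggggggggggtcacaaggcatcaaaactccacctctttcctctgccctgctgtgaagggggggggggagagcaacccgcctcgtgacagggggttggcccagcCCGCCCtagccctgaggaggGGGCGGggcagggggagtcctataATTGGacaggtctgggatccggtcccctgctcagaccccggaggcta
The Alb window held GTTAAT 82 bases before the start, CCAAT 106 and 65 bases before it and TTGCNNAA 144 bases before it. GTTAAT was found in 7.45% of all windows, CCAAT in 37.5% and TTGCNNAA in 10.6%. HNF1 and C/EBP are factors of hepatocyte genes, and CCAAT boxes are bound by NF-Y. The Apoe window held GGGCGG 41 and 21 bases before the start, a motif present in 33.1% of windows, and CCAAT from base 4 of the transcript. TTCNNNGAA, present in 8.87% of windows, was in neither sequence. Of the Apoe windows not shown, the one starting at 88485767 held none of the 5 motifs. The one starting at 88484471 held GGGCGG 220 and 200 bases before its start and CCAAT 176 bases before it. A match describes the letters and was not tested as a binding site.

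Alb had the highest RPKM (reads scaled to gene length and to library size) of all genes in 48 of 48 livers, between 31772 and 68954. Hp reached 6329 to 15742 RPKM, which placed it between 3 and 14 in the order of genes within an animal. Apoe reached 3178 to 8105 RPKM, between place 9 and 32. The order Alb, Hp, Apoe held in 47 of 48 livers, the exception being CSAA animal 101 at week 4.

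**Figure D1:**
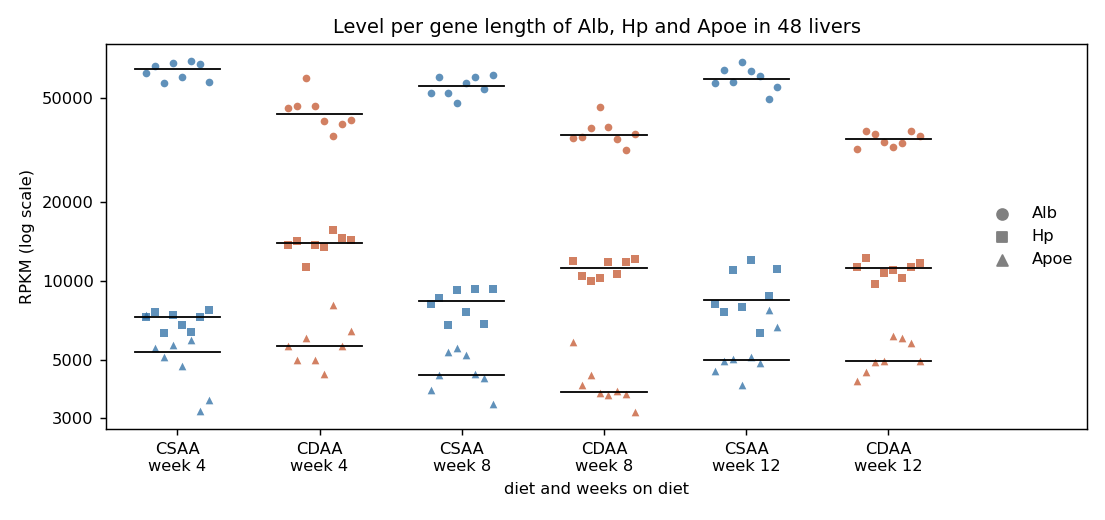
RPKM on a log scale in each of 48 livers, by diet and weeks on diet; circles are Alb, squares Hp and triangles Apoe, blue CSAA and orange CDAA, and black lines mark the median of 8 animals. Alb lies above both other genes in every liver, and Hp lies closest to Apoe in the CSAA livers.

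In CSAA livers Alb had a median RPKM of 64364 at 4 weeks, 55505 at 8 weeks and 59247 at 12 weeks. In CDAA livers it was 43653, 35999 and 35018 in the same order. Hp had a median of 7323, 8411 and 8492 RPKM on CSAA, and of 14038, 11285 and 11190 RPKM on CDAA. With these levels Hp moved up among all genes on CDAA at week 4, where its median place was 4 against 12.5 on CSAA. Apoe had a median of 5361, 4393 and 5012 RPKM on CSAA and of 5671, 3784 and 4970 RPKM on CDAA. The ranges of Apoe overlapped between the diets at each week.

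The share of the library that the 3 genes took tells what part of the reads on genes each made up. Reads also depend on gene length, so a share of reads is not a share of mRNA molecules. Alb took a lower share on CDAA at every week, Hp a higher share at weeks 4 and 8, and Apoe a share whose difference did not pass the test. At week 4 the 3 genes together made up 14.6 ± 1.05% of the CSAA libraries and 11.5 ± 1.33% of the CDAA libraries (SD, n = 8 each). At week 12 their sum was 14.02 ± 1.09% for CSAA and 9.12 ± 0.472% for CDAA (SD, n = 8 each). Counting error was small beside the spread of animals, with 95% Wilson intervals of the share in 1 animal no wider than 0.0176 percentage points to each side for Alb, 0.00613 for Hp and 0.00411 for Apoe. These intervals cover counting error only.

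At week 4, Alb took from 11.8 to 14.3% of the reads on CSAA, with a median of 13.3%, and from 7.43 to 12.4% on CDAA, with a median of 9.03%. The groups overlapped through CDAA animal 303 alone, and the other 7 CDAA livers lay below every CSAA liver. The mean fell from 13.2 ± 1.00% to 9.24 ± 1.49% (SD, n = 8 each), with an adjusted p of 0.000839 in the exact permutation test. Without the 4 animals named above the difference was -4.37 percentage points, against -3.92 with them.

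At week 8, Alb took from 9.88 to 12.6% on CSAA, with a median of 11.5%, and from 6.58 to 9.61% on CDAA, with a median of 7.45%. At week 12 the range was 10.3 to 14.2% on CSAA, with a median of 12.3%, and 6.60 to 7.76% on CDAA, with a median of 7.25%. The diets did not overlap at either week, as was the case, in this direction, for 8.95% of all genes tested at week 8 and 4.22% at week 12. Relative to CSAA the mean share fell by 33.1% at week 8 and fell by 41.4% at week 12, each with an adjusted p of 0.00035 (exact permutation test, 2-sided). The smallest p that 12870 splits of 16 animals can give is 0.000155.

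**Figure D2:**
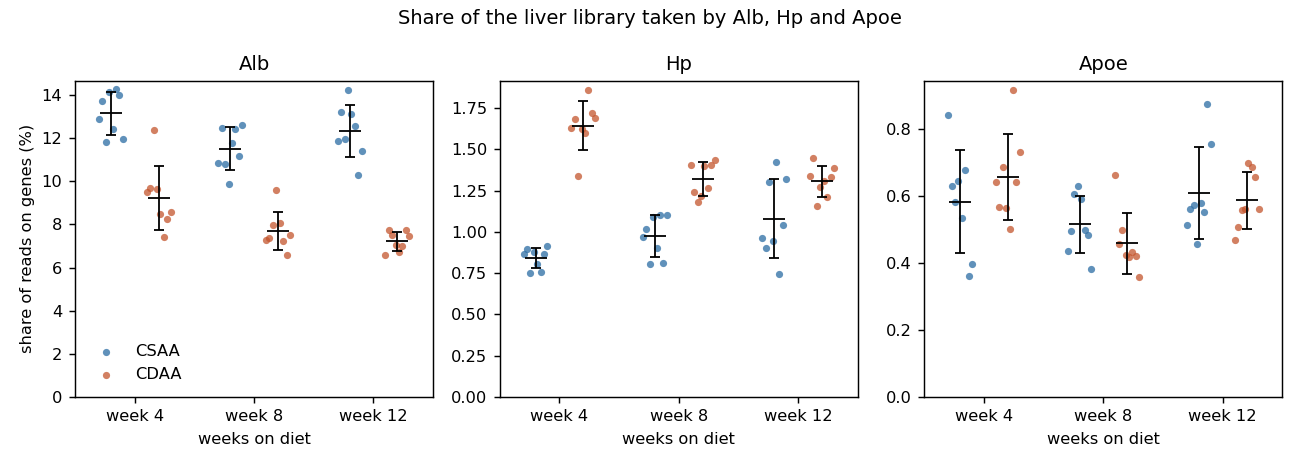
Share of all reads on genes (%) for Alb, Hp and Apoe in each animal, by weeks on diet; points are animals (blue CSAA, orange CDAA, 8 per group), black bars the mean and SD. Alb lies lower on CDAA at all 3 weeks with 1 CDAA animal at 12.4% at week 4, Hp lies higher at weeks 4 and 8 without overlap, and Apoe overlaps throughout.

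Hp took from 0.753 to 0.916% of the reads on CSAA at week 4, with a median of 0.865%, and from 1.34 to 1.86% on CDAA, with a median of 1.66%. At week 8 it took from 0.802 to 1.10% on CSAA, with a median of 0.993%, and from 1.18 to 1.43% on CDAA, with a median of 1.33%. Every CDAA liver lay above every CSAA liver at both weeks, as did 13.9% of all genes tested at week 4 and 45.9% at week 8. The mean share was 1.95-fold higher at week 4 and 1.35-fold higher at week 8 (adjusted p of 0.00035 each, exact permutation test).

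At week 12, Hp took from 0.747 to 1.42% on CSAA, with a median of 1.00%, and from 1.15 to 1.45% on CDAA, with a median of 1.32%. The CSAA livers were wide, with animals 903, 905 and 908 at 1.30, 1.42 and 1.32% and the other 5 at 1.04% or less. The coefficient of variation of this group was 22.1%, against 7.23% on CDAA. The mean share was 1.21-fold higher on CDAA, with an adjusted p of 0.0396 (exact permutation test) that did not pass the threshold of 0.01. In the same test it was 0.159 with Alb left out of the denominator and 0.110 without the 10 most read genes. As a share of the sum of RPKM the difference passed, with an adjusted p of 0.0021 (exact permutation test).

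Apoe took from 0.361 to 0.839% on CSAA at week 4, with a median of 0.605%, and from 0.499 to 0.914% on CDAA, with a median of 0.640%. At week 8 the range was 0.383 to 0.627% on CSAA, with a median of 0.496%, and 0.359 to 0.662% on CDAA, with a median of 0.427%. At week 12 it was 0.455 to 0.875% on CSAA, with a median of 0.565%, and 0.468 to 0.698% on CDAA, with a median of 0.561%. The groups overlapped at each week, and the adjusted p was 0.365, 0.286 and 0.731 in that order (exact permutation test). The mean of CDAA was 1.12-fold that of CSAA at week 4, 0.891-fold at week 8 and 0.966-fold at week 12.

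Ratios between genes within an animal do not depend on a factor applied to the whole library. Removal of a trend with gene length, used below for the fold changes, would alter them and was not applied to ratios. The balance of Hp to Alb was higher in every CDAA liver than in every CSAA liver at all 3 weeks. How many other genes separate the diets by their ratio to Alb was not counted. In the fold changes across all genes given below, 6.154%, 8.937% and 3.818% of genes lay lower than Alb at weeks 4, 8 and 12. By fold change most genes were thus higher relative to Alb on CDAA, so a higher ratio to Alb is not particular to Hp. For 100 reads of Alb, CSAA livers held 5.30 to 7.66 reads of Hp at week 4, 7.25 to 11.1 at week 8 and 5.94 to 11.6 at week 12. CDAA livers held 10.8 to 25.0, 12.7 to 21.3 and 15.3 to 20.2 in the same order. The lowest of the CDAA livers at week 4 was animal 303. From the earliest to the latest week the mean log2 ratio was higher by 1.48, 1.03 and 1.07, or 2.80-fold, 2.04-fold and 2.10-fold (adjusted p of 0.000466 each, exact permutation test over 9 ratios). Per gene length, Hp stood at a mean of 11.3 RPKM for 100 RPKM of Alb on CSAA and 32.1 on CDAA at week 4. A ratio shows that 2 genes changed unequally and not which of them did.

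**Figure D3:**
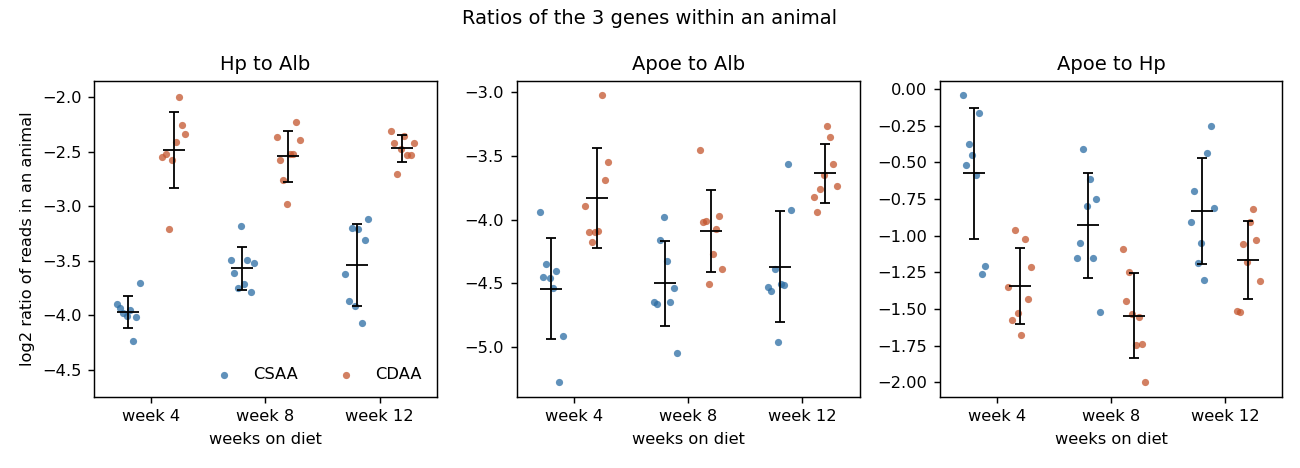
Log2 ratio of the reads of 2 genes within an animal for Hp to Alb, Apoe to Alb and Apoe to Hp, by weeks on diet; points are animals (blue CSAA, orange CDAA, 8 per group), black bars the mean and SD. Hp to Alb separates the diets at all 3 weeks, with mean differences of 1.48, 1.03 and 1.07, and most genes were higher relative to Alb on CDAA.

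Apoe to Alb was also higher on CDAA, although the groups overlapped. For 100 reads of Alb, CSAA livers held 2.58 to 6.50 reads of Apoe at week 4, 3.03 to 6.35 at week 8 and 3.20 to 8.49 at week 12. CDAA livers held 5.54 to 12.3, 4.39 to 9.11 and 6.53 to 10.4 in that order. The mean log2 ratio differed by 0.72 at week 4 (adjusted p of 0.00175, exact permutation test) and by 0.73 at week 12 (adjusted p of 0.0034, exact permutation test). At week 8 the difference of 0.41 did not pass, with an adjusted p of 0.0271 (exact permutation test). Without the 4 animals named above it was 0.49 with an adjusted p of 0.00804 (exact permutation test), which passed.

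Apoe to Hp was lower on CDAA at weeks 4 and 8. The mean log2 ratio fell by 0.77 at week 4 and by 0.61 at week 8 (adjusted p of 0.0034 each, exact permutation test). At week 12 the difference was -0.34 with an adjusted p of 0.0539 (exact permutation test). Mean reads of Apoe for 100 reads of Hp were 69.8 on CSAA and 39.97 on CDAA at week 4, and 57.9 and 45.2 at week 12.

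Differential expression between the diets was then tested across all 12756 genes with edgeR's quasi-likelihood test, on counts scaled with TMM factors. These factors set the bulk of genes equal between libraries, so a value is relative to the other genes. Their mean at week 4 was 0.808 on CSAA and 1.07 on CDAA. The later means were 0.848 and 1.29 at week 8, then 0.777 and 1.37 at week 12. A gene passed at a Benjamini-Hochberg adjusted p under 0.01, as did 54.2% of genes after 4 weeks, 67.4% after 8 weeks and 69.3% after 12 weeks. The study's call also asks for a log2 fold change of 1 or more in size, met by 19.9%, 30.2% and 30.7% of genes in the same order. Of the 3 genes, 2 passed after 4 weeks, 2 after 8 weeks and 3 after 12 weeks. Alb met the full call at weeks 8 and 12. At week 4 its log2 fold change was -0.89 with all animals, which fell short of the full call. Without the 4 animals named above it was -1.02 (edgeR adjusted p = 8.62e-13) and met it.

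Alb fell at each week under TMM and under every other scaling used. Its normalised counts (CPM with TMM factors) ranged from 98191 to 161436 on CSAA and from 50284 to 81555 on CDAA at week 8. At week 12 the ranges were 130392 to 186834 and 46268 to 61335. The groups overlapped at neither of these weeks. On this scale groups without overlap, in either direction, were found for 43.0% of all genes at week 8 and 43.5% at week 12. Counted only where CDAA was lower, as for Alb, they were 2934 and 3015 of 12756 genes. Fold changes of CDAA to CSAA (log2), in order of week, were -0.89 ± 0.12, -1.19 ± 0.12 and -1.59 ± 0.13 (SE, n = 8 each). The edgeR adjusted p was 3.86e-08, 1.21e-11 and 3.96e-15. Scaled to library size alone the changes were -0.51, -0.58 and -0.77. Among all genes, 3.818% had a lower fold change than Alb at week 12.

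The direction of Hp at weeks 8 and 12 depended on the scaling. With TMM factors its CPM ranged from 8959 to 11842 on CSAA and from 14442 to 16156 on CDAA at week 4, without overlap. 13.3% of all genes had no overlap at this week in either direction, and 1111 of 12756 had none with CDAA higher, as for Hp. At week 8 the ranges were 9161 to 14049 and 8869 to 11120, and at week 12 they were 9336 to 19848 and 8495 to 11465. The groups overlapped at both later weeks. The log2 fold change was 0.55 ± 0.10 (SE, n = 8 each) at week 4 and passed (edgeR adjusted p = 9.42e-06). At week 8 it was -0.17 ± 0.10 and did not pass (edgeR adjusted p = 0.123). At week 12 it was -0.55 ± 0.10 and passed as a fall with TMM factors (edgeR adjusted p = 6.44e-06), while with library size alone it was 0.28 ± 0.09 and passed as a rise (edgeR adjusted p = 0.00487).

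With library size alone Hp was also higher at week 8, at 0.44 (edgeR adjusted p = 2.55e-05). The median log2 fold change of all genes was then 0.39, 0.65 and 0.73 at weeks 4, 8 and 12, against -0.02, 0.05 and -0.09 with TMM factors. Relative to that median Hp lay above it at week 4 and below it at weeks 8 and 12 under both scalings. When a trend with gene length was removed, Hp was at 0.24 at week 8 (edgeR adjusted p = 0.0207) and at -0.30 at week 12 (edgeR adjusted p = 0.00407).

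**Figure D4:**
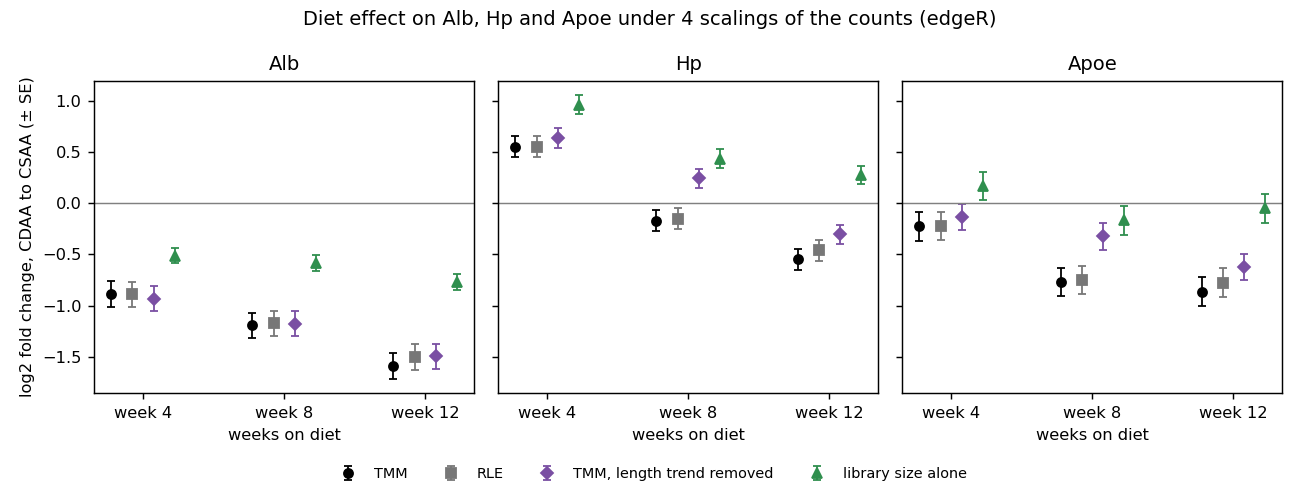
Log2 fold change of CDAA to CSAA (± SE) from edgeR for Alb, Hp and Apoe, by weeks on diet, under 4 scalings of the counts; the grey line marks no change. Alb is below the line throughout, Hp at week 12 is at -0.55 with TMM factors and 0.28 with library size alone, and Apoe is below the line at weeks 8 and 12 but close to it with library size alone.

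Apoe was lower at weeks 8 and 12 with TMM factors and passed there, while with library size alone no week passed. Its CPM with TMM factors ranged from 4889 to 7567 on CSAA and from 2749 to 5205 on CDAA at week 8, where CDAA animal 701 alone reached into the CSAA range. At week 12 they ranged from 5985 to 11069 and from 3277 to 4949 and did not overlap, as for 43.5% of all genes in either direction and 3015 of 12756 with CDAA lower. The log2 fold change was -0.23 ± 0.14 (SE, n = 8 each) at week 4 (edgeR adjusted p = 0.153), -0.77 ± 0.14 at week 8 (edgeR adjusted p = 4.19e-06) and -0.86 ± 0.14 at week 12 (edgeR adjusted p = 4.25e-07). With library size alone it was 0.17, -0.17 and -0.05, so its direction at week 4 turned with the scaling, without passing under either. With the length trend removed week 8 came to -0.32 and did not pass (edgeR adjusted p = 0.0249).

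Change with time was tested within each diet in the same fit, where comparisons share the animals of a week. On CSAA none of the 3 genes passed from week 4 to 8, as did 0.196% of all genes, or from week 8 to 12, as did 30.3%. With the length trend removed, Hp at 0.46 and Apoe at 0.58 did pass on CSAA from week 8 to 12 (edgeR adjusted p = 0.00017 and 0.00048). From week 4 to 12 on CSAA, where 28.0% of genes passed, Hp alone of the 3 did, with a rise of 0.42 ± 0.10 (SE, edgeR adjusted p = 0.000931). On CDAA all 3 fell from week 4 to 8, where 38.3% of genes passed, with log2 changes of -0.56 for Alb, -0.58 for Hp and -0.79 for Apoe. Hp was at -0.26 with the length trend removed and did not pass (edgeR adjusted p = 0.031), nor did Alb at -0.26 on log2(RPKM + 1) (limma adjusted p = 0.031). From week 8 to 12, where 2.78% passed, none of the 3 did. From week 4 to 12 on CDAA, where 49.3% passed, the changes were -0.74, -0.68 and -0.52, each past the threshold. The last, of Apoe, was -0.16 with library size alone and -0.38 without the 4 animals named above, and passed under neither (edgeR adjusted p = 0.331 and 0.0225).

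Whether the effect of the diet itself changed between weeks was tested as a separate contrast. From week 4 to 8, 20.8% of all genes passed and of the 3 genes Hp did, with a diet effect lower by 0.73 ± 0.15 on the log2 scale (edgeR adjusted p = 0.000129). With the length trend removed this was -0.39 and did not pass (edgeR adjusted p = 0.0327). From week 8 to 12, 21.2% of all genes passed and none of the 3. With the length trend removed, the Hp difference from week 8 to 12 did pass. From week 4 to 12, 22.1% passed and all 3 genes did. Hp differed by -1.10 ± 0.15 (SE; edgeR adjusted p = 1.52e-07), Alb by -0.70 ± 0.17 (0.00137) and Apoe by -0.64 ± 0.20 (0.00994). The week 4 to 12 difference of Hp passed under each scaling used, whereas that of Alb was -0.26 with library size alone and did not pass (edgeR adjusted p = 0.0535). That of Apoe, close to the threshold, was lost under 7 of 8 alternatives, with values from -0.65 without the filter on low counts to -0.22 with library size alone.

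Among animals of 1 diet and week, Alb and Hp were positively correlated in 6 of 6 groups, with Pearson's r from 0.08 to 0.61. Without the 2 animals farthest from the median of Alb, r on CSAA at week 4 went from 0.54 to -0.05 and stayed positive in the other groups. How often other pairs of genes are positive in all groups was not counted. For Alb and Apoe r ranged from -0.70 to 0.34 and for Hp and Apoe from -0.43 to 0.83. In 18 correlations of log2 normalised counts over the 8 animals of a group, none passed after adjustment, and the lowest adjusted p was 0.229 (exact permutation test). The highest Pearson's r was 0.83 between Hp and Apoe on CDAA at week 4, with a Spearman's rho of 0.74 and a raw p of 0.0127 (exact permutation test), and r was 0.61 without the 2 animals farthest from the median. Both values of a pair come from 1 library and share its scaling.

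The genes with the most similar pattern over the 48 livers were looked up by Pearson's r of log2 normalised counts, a description across libraries that differ by diet and week. For Alb 697 of 12755 other genes reached an r of 0.9, led by ENSRNOG00000009421 at 0.98. For Apoe 5 genes did, led by ENSRNOG00000020466 at 0.93, and for Hp none did, with a highest r of 0.81. Among the 3 genes r was 0.72 for Alb and Apoe, 0.40 for Hp and Apoe and 0.32 for Alb and Hp. Taken as deviations from the group means these came to 0.02, 0.04 and 0.28.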

How the data were processed

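Counts per gene of 48 livers were deposited by the authors without normalization, after alignment of single-end reads with STAR to Rnor_6.0 with Ensembl release 84 and counting with featureCounts. RPKM values were deposited by the authors too, and their exact scaling is not given in the sources used here. The ratio of CPM to RPKM placed gene lengths at 2.07 kb for Alb, 1.18 kb for Hp and 1.13 kb for Apoe in every animal. Stranded libraries were made from poly(A) RNA. The tables list identifiers, and the names of the 3 genes came with their identifiers. No table paired the others with symbols, so pathway and cell type marker lists fixed by symbol were not used here and the tissue could be checked by the 3 genes alone.

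Genes that reached 1 CPM (reads of a gene per library, scaled) in 5 or more of the 8 animals of any group were tested with edgeR 4.0.16 (quasi-likelihood, TMM, 1 coefficient per diet and week over 48 animals), with R 4.3.3. Standard errors were taken as the size of the fold change (log2) over the root of its F statistic. Shares and ratios were compared by 2-sided exact permutation tests over all splits (numpy 2.4.6), adjusted by Benjamini-Hochberg over 9 shares and 9 ratios. Wilson intervals were computed with scipy 1.17.1. Alternatives were limma-voom (limma 3.58.1), DESeq2 1.42.0, RLE factors, library size alone, no filter, log2(RPKM + 1), a gene length trend removed, the animals of a week alone, other denominators of the shares, leaving out each animal and leaving out 4 animals. Genes without overlap on the TMM scale were first counted by direction and then in either direction, a change of presentation made after the counts were seen, and both are given. The tests were tested on simulated data. In the simulated counts few genes changed, as many up as down, so they cannot tell which scaling gives the right direction here. The 3 genes were to be named always, with the 5 genes of highest r to each over 48 livers, of which the leading identifier is given for Alb and Apoe since identifiers could not be paired with names. The 3 genes and all lists were chosen with earlier results of these data known. Animal numbers do not recur between groups, so no pairing was made, and no batch is named in the labels. Reads carry no molecular identifiers.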

Additional observations from a re-analysis of the deposited data

Results flagged for a closer look

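For 3 shares and 3 ratios in each of the 6 groups of 8 animals, 36 tests looked for 1 animal far from the others. Chance gives about 1.8, and 3 were found, but these tests share genes and animals and are not independent. Animal 303 on CDAA at week 4 had an Alb share of 12.4% of reads on genes, while the other 7 lay between 7.43 and 9.68%. The same animal had a Hp to Alb log2 ratio of -3.21, while the others lay between -2.57 and -1.999. Its TMM factor was 0.827, the lowest of its group. Animal 701 on CDAA at week 8 had an Apoe share of 0.662%, while the others lay between 0.359 and 0.497%.

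The diet effect differed between weeks, by the edgeR test of the difference itself, in 4 cases. For Hp the log2 fold change of CDAA to CSAA at week 8 minus that at week 4 was -0.73, and at week 12 minus week 4 it was -1.10. At week 12 minus week 4 it was -0.70 for Alb and -0.64 for Apoe, values that did not pass with library size alone.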

How the results depend on the processing

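Leaving out each of 48 animals kept all 144 diet effects in direction and on their side of the adjusted p threshold of 0.01. The log2 fold changes were -1.04 to -0.83, -1.27 to -1.16 and -1.63 to -1.56 for Alb at weeks 4, 8 and 12. They were 0.52 to 0.58, -0.21 to -0.13 and -0.61 to -0.46 for Hp, and -0.30 to -0.14, -0.87 to -0.72 and -0.91 to -0.78 for Apoe. Without animal 303, Alb at week 4 was at -1.04 and also reached the size of 1 that the full call asks for. Of the other alternatives, 324 kept the result, 12 turned direction, 22 lost the call and 5 gained it. The 324 include numbers of genes changed by the diet, which were taken as kept when similar in size. The rest of the 324 kept direction and side of the adjusted p threshold, by which alone calls were counted here. With library size alone the diet effect was 0.17 (Apoe, week 4), 0.44 and 0.28 (Hp, weeks 8 and 12), -0.17 (Apoe, week 8), -0.049 (Apoe, week 12), the change of Apoe on CDAA from week 4 to 12 was -0.16, and the difference of the diet effect was 0.12 (Apoe, weeks 8 to 12), -0.26 (Alb) and -0.22 (Apoe, both weeks 4 to 12). With log2(RPKM + 1) the same values were 0.19, 0.44, 0.30, -0.17, -0.034, -0.15, 0.14, -0.25 and -0.23, and Alb on CDAA from week 4 to 8 was -0.26. With the length trend removed, Hp and Apoe at week 8 were 0.24 and -0.32, Hp and Apoe on CSAA from week 8 to 12 were 0.46 and 0.58, Hp from week 4 to 8 and Apoe from week 4 to 12 on CDAA were -0.26 and -0.17, and the difference of the diet effect was -0.39 (Hp, weeks 4 to 8), -0.55 (Hp, weeks 8 to 12), -0.56 (Alb) and -0.49 (Apoe, weeks 4 to 12). The last was -0.55 with DESeq2, -0.55 with RLE factors, -0.65 without the filter and -0.46 without animals 303, 504, 908 and 1102. Without these animals the Apoe change on CDAA from week 4 to 12 was -0.38, the Apoe share differed by 0.012 percentage points at week 12 and Apoe to Alb at week 8 by 0.49. As a share of the sum of RPKM, Hp at week 12 differed by 0.457 percentage points, and Apoe by 0.0307 and 0.0375 at weeks 8 and 12. The cause of these changes was not tested. With 8 animals a group, spread between animals limits the Apoe and Hp values more than depth. At week 12 another scaling moved the split of called genes from 3997 higher and 4843 lower to 9084 and 1072 with library size alone.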
